A study of Mus musculus with 33 samples.

Results

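The Zscan4 family is a set of near-identical mouse genes, Zscan4a to Zscan4f, that are transcribed in 2-cell embryos and in a small fraction of embryonic stem cells (ESCs). The 6 genes were taken by their symbols from the 55487 genes of the deposited RNA-seq tables, and all 6 are listed there. As a family they were selected on their read counts across the conditions, so their levels are given as a description, without a test. ESCs of the C57BL/6 strain gave 33 libraries, 3 for each of 11 conditions. Wild-type set A is the control of Hp1α Δ/Δ, Hp1β Δ/Δ, Hp1γ Δ/Δ, Hp1α/β Δ/Δ and Hp1α/β/γ Δ/Δ cells, and wild-type set B is that of the Hp1β/γ Δ/Δ and the Hp1α/γ Δ/Δ lines. Setdb1 Δ/Δ cells were set against Setdb1 F/F cells, which carry the floxed, intact gene. The question behind the design is what the readers of H3K9 methylation, HP1α, HP1β and HP1γ, and one of its writers, SETDB1, keep silent in ESCs.

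The mutants are not alike in age. The cells lacking 1 or 2 of the HP1 proteins are established CRISPR/Cas9 knockout lines. The Hp1α/β/γ Δ/Δ cells, which lack all 3, were made from Hp1α/β Δ/Δ cells with a floxed Hp1γ gene and collected 72 h after transfection of Cre recombinase, so Hp1α/β Δ/Δ cells are the nearest to their parent among these libraries. Setdb1 Δ/Δ cells were also made with Cre. All cells were grown on mouse embryonic fibroblast feeders with serum and LIF, and feeders were depleted before collection. Total counts ran from 17330992 to 25743193 per library, with a median of 21522605. Cbx5, Cbx1 and Cbx3, which encode HP1α, HP1β and HP1γ, were each lower in the constitutive mutants of that gene, with log2 fold changes from -2.51 for Cbx1 in Hp1β/γ Δ/Δ to -1.05 for Cbx3 in Hp1α/γ Δ/Δ. In Hp1α/β/γ Δ/Δ cells Cbx1 (-3.27) and Cbx3 (-1.48) were called lower and Cbx5 (-0.81) was below the fold threshold. Against Hp1α/β Δ/Δ ESCs 2 of the 3 HP1 genes were called lower in these cells, although Hp1γ alone was floxed. The share of all genes lower in that comparison is not given here, and against wild-type set A it was 17.1%. Setdb1 mRNA had a log2 fold change of -0.93 in Setdb1 Δ/Δ cells, a count over the whole gene that does not show whether the floxed exons were removed. Hp1α/γ Δ/Δ replicate 2 stood apart from its group, with a TMM scaling factor of 0.786 against 0.904 and 0.913 in the other two.

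ZSCAN4 proteins carry a SCAN domain, through which such proteins pair, and zinc fingers that bind DNA. In the mouse the genes are switched on at zygotic genome activation, and in ESC culture they mark a short-lived, reversible 2-cell-like state in which telomeres lengthen by recombination. DUX, a homeobox transcription factor, activates the 2-cell-like program, DPPA2 and DPPA4 act upstream of Dux, and chromatin repressors including SETDB1, TRIM28 and EHMT2 hold the program back. In bulk libraries such as these, a larger share of cells in that state and more RNA per such cell cannot be told apart.

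The 6 genes lie in a single cluster on chromosome 7 of GRCm38, from 10794242 to 11614112 together with 3 copies named as pseudogenes, Zscan4-ps1, Zscan4-ps2 and Zscan4-ps3. Zscan4b (10900740 to 10905050), Zscan4d (11161374 to 11166159), Zscan4c (11005745 to 11010547) and Zscan4f (11397915 to 11402318) are annotated as protein-coding by both GENCODE M21 and RefSeq. Zscan4a (10794242 to 10799057) is a pseudogene in both, while Zscan4e (11306378 to 11310682) and the ps copies are protein-coding in GENCODE and pseudogenes in RefSeq. Over the 15 pairs of members, the longest annotated transcripts were 96.6% to 99.7% identical along their aligned bases. The closest pair was Zscan4b and Zscan4e, and Zscan4f was 99.8% identical to Zscan4-ps2. Of the 150-base windows of the longest transcript, the length of a read here, 13.8% in Zscan4f, 22.6% in Zscan4e, 31.6% in Zscan4b, 39.0% in Zscan4c, 74.9% in Zscan4a and 87.0% in Zscan4d occurred in no other copy. The share of reads given to each copy therefore rests on the authors' assignment of ambiguous reads, and of the family's 101 values above 0 among 198, 77.2% were not whole numbers. The sum of the 6 members is the main value below.

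The start regions of the copies are shown because the copies are described together below and transcription of each begins there. RefSeq sequence of GRCm38.p6 was at hand for the promoters of Zscan4b, Zscan4c, Zscan4d and Zscan4f, and is printed for the copy with the highest level and for the one that differs from it at the most positions. Each run holds the 250 bases before the annotated start, 5′ to 3′ on the gene's strand, and the capitals mark a TATAAAA box, a motif chosen after the sequences were seen. The Zscan4f run is chr7:11397665-11397914 on the plus strand and the Zscan4b run is chr7:10905051-10905300 on the minus strand.
Zscan4f: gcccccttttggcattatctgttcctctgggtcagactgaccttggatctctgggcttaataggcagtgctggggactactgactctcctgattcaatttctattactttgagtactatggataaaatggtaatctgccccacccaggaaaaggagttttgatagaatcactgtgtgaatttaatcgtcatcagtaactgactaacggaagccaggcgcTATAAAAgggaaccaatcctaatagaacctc
Zscan4b: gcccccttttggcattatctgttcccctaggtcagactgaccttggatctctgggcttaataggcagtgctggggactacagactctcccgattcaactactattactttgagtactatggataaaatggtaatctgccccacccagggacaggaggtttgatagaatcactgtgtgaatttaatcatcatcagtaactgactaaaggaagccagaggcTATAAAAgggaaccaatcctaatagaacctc

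Both boxes begin 31 bases before the start. Over the 300 bases from 250 before to 50 after the start, 287 were identical between Zscan4f and Zscan4b (95.7%), and Zscan4f and Zscan4c, whose annotated starts are offset, were 99.3% identical over 277 aligned bases. TATAAAA on the gene's strand was found in the promoters of all 4 copies and in 3.27% of 32851 mouse promoters of the same length. The consensus motif of DUX was found in none of the 4 and in 0.0335% of all promoters, and TGCACAC, a motif of ZSCAN4 itself, in none of the 4 and in 4.40% (both strands). These are matches of letters in a short window.

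The family was near 0 in most conditions and high in 3. Values are given as counts and as CPM, the count per 1000000 counts of the library after TMM scaling. In Setdb1 Δ/Δ cells the 3 libraries held 1288, 1421 and 1561 family counts, a level of 69.1 ± 4.84 CPM (SD, n = 3). In Hp1β/γ Δ/Δ ESCs they held 1003, 945 and 1206 counts, or 43.9 ± 2.75 CPM (SD, n = 3). The Hp1α/β/γ Δ/Δ libraries held 402, 346 and 443 counts, or 17.6 ± 0.416 CPM (SD, n = 3). The ranges of these 3 conditions did not overlap with each other or with any other condition.

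Hp1α/γ Δ/Δ ESCs came next, with 17, 28 and 20 counts and 1.09 ± 0.396 CPM (SD, n = 3). That is 1.58% of the level in Setdb1 Δ/Δ cells, and the lowest of these libraries (0.807 CPM) lay above the highest library of wild-type set B (0.496 CPM). The highest of the 3, replicate 2, is the library that stood apart, and the other two hold 17 and 20 counts.

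The other 7 conditions held at most 11 family counts in a library. Wild-type set B had 6, 3 and 11 counts. Hp1γ Δ/Δ ESCs had 4, 8 and 8, Hp1α Δ/Δ ESCs 7, 7 and 3, and Setdb1 F/F cells 4, 6 and 3. These 4 conditions had means from 0.238 to 0.312 CPM and overlapped with each other. Hp1β Δ/Δ ESCs had 3, 2 and 1 counts, and wild-type set A and Hp1α/β Δ/Δ ESCs each had 0, 0 and 1. Outside the 3 high conditions 97 of 144 member values were 0, and only 2 exceeded 10 counts, the highest being 11.9.

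**Figure D1:**
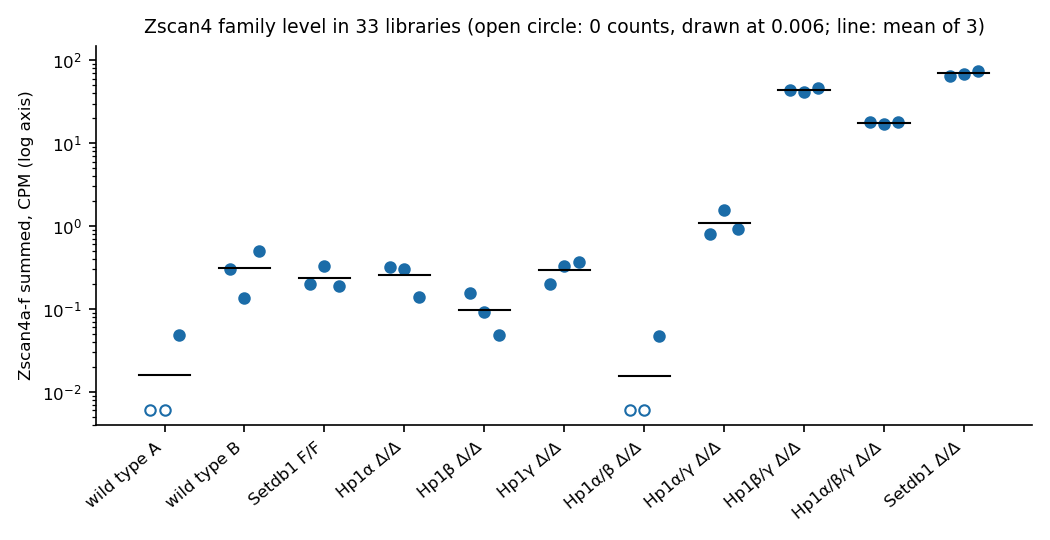
Summed level of Zscan4a to Zscan4f in CPM (log axis) in each of the 33 libraries, with a line at the mean of the 3 libraries of a condition and open circles for libraries with 0 counts, drawn at 0.006. Setdb1 Δ/Δ (69.1 CPM), Hp1β/γ Δ/Δ (43.9 CPM) and Hp1α/β/γ Δ/Δ (17.6 CPM) lie apart from all other conditions, of which Hp1α/γ Δ/Δ is highest at 1.09 CPM.

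Each mutant was then set against its own control. Loss of SETDB1 went with 4270 family counts over the 3 libraries against 13 in Setdb1 F/F cells, a ratio of 293 after scaling (95% exact interval 171 to 551, which covers counting error only). In the fit over all genes the log2 fold change of the sum was 8.15 (SE 0.14). Each member was past both thresholds of the call (adjusted p below 0.05, log2 fold change beyond 1), 6 of 6, where 18.5% of all 16457 genes tested were higher. Since members pass the filter on low counts only through the mutant libraries, such counts add nothing to the levels above.

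Loss of HP1β together with HP1γ went with 3154 counts against 20 in wild-type set B, a ratio of 142 (95% exact interval 92.1 to 234), and a log2 fold change of 7.13 (SE 0.16). Again 6 of 6 members were past both thresholds, where 7.32% of all genes tested were called higher. Here too they passed the filter only through the mutant libraries, so such a count adds nothing to the levels. Neither single loss came near the family level of Hp1β/γ Δ/Δ ESCs. Hp1β Δ/Δ ESCs had 6 counts and Hp1γ Δ/Δ ESCs 20 counts in all, against 1 count in wild-type set A, so that the ratios were 6.22 (95% exact interval 0.754 to 286) and 19.4 (3.11 to 805). For Hp1α Δ/Δ ESCs, with 17 counts, the ratio was 16.5 (2.59 to 690). The family sum was too low to enter the fits of the 3 single mutants and of Hp1α/β Δ/Δ ESCs. Wild-type set B itself held 20 counts against the 1 of set A, a ratio of 19.8 (3.17 to 822), so the differences of Hp1α Δ/Δ and Hp1γ Δ/Δ ESCs from set A were of the size that separated the wild-type sets.

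The pairs of lost HP1 proteins differed. Hp1α/γ Δ/Δ ESCs, compared with the same wild-type set B, had 65 counts, a ratio of 3.48 (2.08 to 6.07) and a log2 fold change of 1.75 (SE 0.48), or 1.49 without replicate 2. Hp1α/β Δ/Δ ESCs had 1 count, as did wild-type set A, and no fold is given where both are at or under a floor of 3 counts. No single member passed the filter on low counts in Hp1α/γ Δ/Δ ESCs, where 6.75% of all genes tested were called higher. Zscan4f had 19 counts there and 0 in wild-type set B, at least 6.79-fold higher against a floor of 3 counts over the group, and Zscan4e had 3 counts against 11.

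The Hp1α/β/γ Δ/Δ cells had 1191 counts against 1 in wild-type set A and against 1 in Hp1α/β Δ/Δ ESCs, the nearest to their parent line. For this experiment the paper describes Hp1α/β Δ/Δ cells with floxed Hp1γ that received either Cre or a control vector. The labels instead name wild-type cells as the control. They do not say whether either control used here was transfected, so that a part of the transfection itself cannot be told apart. The ratios were 1132 (203 to 44750) and 1142 (205 to 45160), and the intervals are wide because each control rests on 1 count. The fitted log2 fold changes were 9.67 (SE 0.31) and 9.68 (SE 0.31), and at controls this low they depend on the prior count of the fit. All 6 members were past both thresholds in both comparisons, where 25.1% and 25.4% of all genes tested were called higher. They again passed the filter only through the mutant libraries, so such counts add nothing to the levels. In level, the family stood 2.49-fold lower than in Hp1β/γ Δ/Δ ESCs by CPM. By the authors' TPM, which divides by transcript length and by each library's whole output, the levels were 69.8 ± 3.04 in Setdb1 Δ/Δ, 29.7 ± 1.80 in Hp1β/γ Δ/Δ and 20.3 ± 0.497 in Hp1α/β/γ Δ/Δ (SD, n = 3 each), the same order with a smaller gap between the HP1 mutants. The 3 conditions belong to different controls, and their levels were not tested against each other.

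The copies were compared with each other per length, in TPM. Zscan4f had the highest level in each of the 9 high libraries. It had 31.9, 25.1 and 28.4 TPM in the Setdb1 Δ/Δ libraries, 10.8, 9.34 and 10.7 TPM in Hp1β/γ Δ/Δ, and 8.86, 10.7 and 9.52 TPM in Hp1α/β/γ Δ/Δ. It made up 40.7% ± 4.22, 34.6% ± 1.02 and 47.7% ± 3.54 of the family's TPM (SD, n = 3 each). Of the family's counts it made up 28.9% ± 0.66, 29.6% ± 1.82 and 34.85% ± 1.73 in the same order. The shares thus depend on the length correction. In these TPM values Zscan4f was nearly as high in Hp1α/β/γ Δ/Δ as in Hp1β/γ Δ/Δ cells and the ranges overlapped, while by CPM it was 6.15 ± 0.331 against 12.97 ± 0.361 (SD, n = 3 each).

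Zscan4c, described as the main copy in ESC cultures, had 10.01 ± 0.477 TPM in Setdb1 Δ/Δ, 5.64 ± 0.301 TPM in Hp1β/γ Δ/Δ and 3.16 ± 0.332 TPM in Hp1α/β/γ Δ/Δ (SD, n = 3 each). Zscan4d, described as the main copy of the 2-cell embryo, had 10.8 ± 0.676, 4.97 ± 0.568 and 1.67 ± 0.170 TPM in the same order. Zscan4d is also the member with the most windows of its own. Its share of the family's TPM was 15.4% ± 0.312 in Setdb1 Δ/Δ, 16.8% ± 2.28 in Hp1β/γ Δ/Δ and 8.27% ± 1.02 in Hp1α/β/γ Δ/Δ (SD, n = 3 each), and the last did not overlap with the others. Zscan4c kept closer shares, 14.3% ± 0.640, 19.0% ± 0.157 and 15.6% ± 1.29. By counts the shares of Zscan4d were 18.5% ± 1.10, 17.9% ± 2.29 and 11.8% ± 0.835 in the same order. Those of Zscan4c were 17.2% ± 0.41, 19.7% ± 0.274 and 22.3% ± 3.11, another order than by TPM.

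Zscan4e had 12.8 ± 1.98 TPM in Setdb1 Δ/Δ, 6.21 ± 0.289 in Hp1β/γ Δ/Δ and 3.43 ± 0.582 in Hp1α/β/γ Δ/Δ (SD, n = 3 each), as high as the coding copies Zscan4c and Zscan4d although RefSeq lists it as a pseudogene. Zscan4b and Zscan4a, at the end of the cluster with the lowest coordinates, were the lowest members by mean. In Hp1α/β/γ Δ/Δ, however, Zscan4b overlapped with Zscan4d (1.06 to 2.11 against 1.48 to 1.80 TPM). Zscan4b had 5.83 ± 0.775, 1.96 ± 0.391 and 1.60 ± 0.526 TPM, and Zscan4a 1.98 ± 0.509, 0.667 ± 0.391 and 0.730 ± 0.149 TPM. Zscan4-ps2 lay among the members, with 11.6 ± 1.06, 6.62 ± 0.663 and 3.62 ± 0.726 TPM. Zscan4-ps3 had 3.30 ± 0.310, 1.30 ± 0.050 and 1.26 ± 0.604 TPM and Zscan4-ps1 was below 1.40 TPM in each library. The pseudogene copies together moved with the members, at 17.3 ± 1.02, 11.7 ± 0.470 and 6.38 ± 0.332 CPM (SD, n = 3 each) in the high conditions and 0.295 ± 0.200 CPM in Hp1α/γ Δ/Δ. Of the windows of Zscan4-ps2, 36.4% occurred in no other copy, so that its reads and those of the members cannot be fully told apart.

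**Figure D2:**
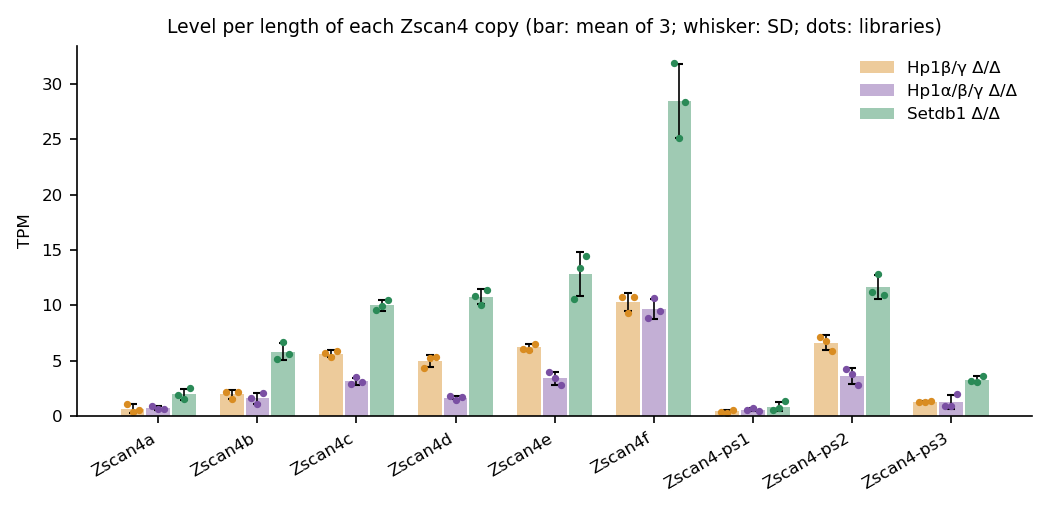
TPM of each of the 6 members and the 3 ps copies in the 3 high conditions (bars, means of 3 libraries; whiskers, SD; dots, libraries). Zscan4f is highest in each condition and reaches 28.4 TPM in Setdb1 Δ/Δ, Zscan4-ps2 lies among the members, and Zscan4a and Zscan4-ps1 are lowest.

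The genes around the copies were mostly silent. The 5 nearest protein-coding genes on each side of the cluster are Nlrp4b and 9 vomeronasal receptor genes of the Vmn1r type, which belong to sensory neurons. Their summed level was at most 2.41 CPM in any library. Vmn1r76 was the only one of the 10 to pass the filter in any comparison. It was higher in Setdb1 Δ/Δ (0.994 ± 0.462 CPM against 0.392 ± 0.302 CPM, log2 fold change 1.31, SE 0.50, Benjamini-Hochberg adjusted p = 0.0241 by edgeR's quasi-likelihood method), with overlapping libraries. Of the 44 other annotated genes inside the cluster, 29 were at 0 in all 33 libraries. In Setdb1 Δ/Δ cells 3 of the 44 passed the filter, through the mutant libraries, since they had 14, 2 and 1 counts in all in Setdb1 F/F cells. All 3 were called higher, where 18.5% of all genes tested were. Gm7789 had 9.06 ± 0.175 CPM against 0.256 ± 0.0704 CPM in Setdb1 F/F cells (SD, n = 3 each). It had 0.0568 CPM in Hp1β/γ Δ/Δ and 0.0866 CPM in Hp1α/β/γ Δ/Δ, where the Zscan4 copies beside it were high. Gm45598 had 1.91 CPM and Gm45551 1.02 CPM in Setdb1 Δ/Δ, and both were below 0.5 CPM in the mean of each other high condition.

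**Figure D3:**
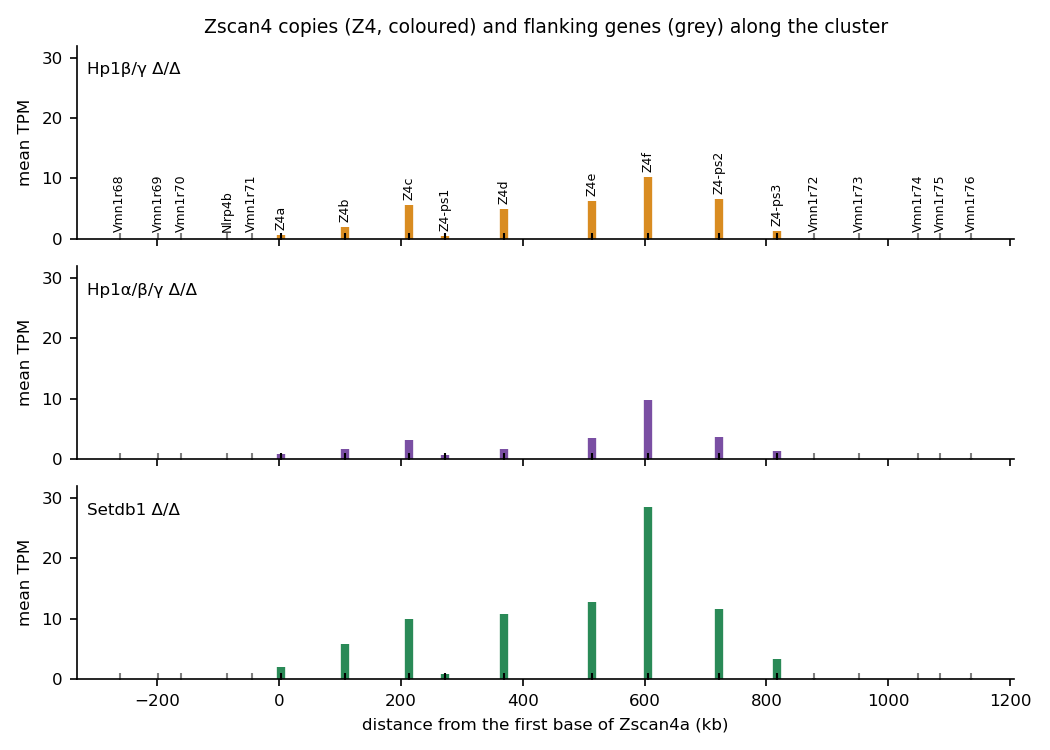
Mean TPM of 3 libraries for the Zscan4 copies (coloured) and the 5 nearest protein-coding genes on each side (grey), by distance in kb from the first base of Zscan4a, in Setdb1 Δ/Δ, Hp1β/γ Δ/Δ and Hp1α/β/γ Δ/Δ cells. The copies from Zscan4c to Zscan4-ps2 carry most of the signal along 820 kb, and the flanking genes are near 0 in all 3.

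Another 43 genes of the 2-cell-like program were examined from a list that does not hold the members. Duxf3, the listed copy of Dux, had 0 counts in both wild-type sets and in Setdb1 F/F cells. It had 0.830, 1.47 and 0.977 CPM in the Setdb1 Δ/Δ libraries, at least 19.95-fold higher against the floor over the group. In Hp1α/β/γ Δ/Δ it had 1.14, 0.869 and 1.14 CPM, at least 23.1-fold higher than in wild-type set A. In Hp1β/γ Δ/Δ it had 0.623, 0.790 and 0.240 CPM, 38 counts in all, which is at least 11.4-fold higher than in wild-type set B. Duxf3 was among the genes called higher in Setdb1 Δ/Δ and Hp1α/β/γ Δ/Δ. In Hp1β/γ Δ/Δ it did not pass the filter on low counts, so that it was not tested there. The Hp1β/γ Δ/Δ libraries were thus below those of Hp1α/β/γ Δ/Δ for Duxf3 and above them for the Zscan4 family, a difference in levels that was not tested. Dux is itself multicopy, and reads of its copies may be split.

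By list, 32 of the 43 genes were called higher in Setdb1 Δ/Δ, 31 in Hp1β/γ Δ/Δ and 25 in Hp1α/β/γ Δ/Δ, where the shares of all genes called higher are again 18.5%, 7.32% and 25.1%, and none was lower in edgeR or DESeq2. The numbers that passed the filter were 32, 33 and 28. Of these, 15, 22 and 20 were at 0 in every library of the control, so that they passed only through the mutant libraries and had to differ. Most of the others also passed through the mutant libraries. Between the wild-type sets 3 of the 43 passed, and in Setdb1 F/F cells 1 had a mean of 1 CPM or more. The counts of calls, and the lack of lower ones, therefore add little to the levels. The median fitted log2 fold change over the tested genes was 7.24, 8.59 and 7.14, or 5.69, 5.77 and 4.36 with genes at 0 in the control put at their bound, while the median over all genes tested was 0.0148, 0.0049 and 0.0349. The list gave 22 genes higher in all 3 comparisons and 37 in at least 1. The 6 called in none were Tdpoz3, Gm4850, AF067061, AF067063, Ubtfl1 and Pramef6.

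Levels of the 2-cell-like genes are given side by side for the 3 conditions, which have different controls and were not tested against each other. Of the 36 genes at 1 CPM or more in any of them, 23 were highest in Hp1β/γ Δ/Δ, 12 in Setdb1 Δ/Δ and 1 in Hp1α/β/γ Δ/Δ, whereas the Zscan4 family was highest in Setdb1 Δ/Δ. Zfp352, a zinc finger gene of the 2-cell stage, had 3.72 ± 0.387 CPM in Hp1β/γ Δ/Δ, 1.31 ± 0.366 CPM in Setdb1 Δ/Δ and 0.870 ± 0.341 CPM in Hp1α/β/γ Δ/Δ (SD, n = 3 each). Its controls had 0 counts, so that these levels were at least 79.8-, 24.1- and 18.7-fold higher against the floor. Usp17le, a ubiquitin-specific protease gene, had 12.9 ± 0.988, 12.2 ± 0.367 and 3.10 ± 0.273 CPM in the same order. Tdpoz4, which encodes a TRAF and POZ domain protein, had 4.08, 3.79 and 3.20 CPM in the Hp1β/γ Δ/Δ libraries but 0.654, 0.468 and 0.334 CPM in Setdb1 Δ/Δ and 0.199 CPM or less in Hp1α/β/γ Δ/Δ. Pramef8 departed the other way, at 98.1 ± 2.94 CPM in Setdb1 Δ/Δ against 21.1 CPM in Setdb1 F/F, with levels in the HP1 mutants like those of wild type.

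By size, the called list genes with at least 1 CPM and the largest fitted changes were Usp17la, Gm8300, Usp17lb, Gm6763 and Usp17le in Setdb1 Δ/Δ. In Hp1β/γ Δ/Δ they were Gm6763, Gm4340, Pramef25, AA792892 and Usp17lb, of which Gm6763 had 13.6 ± 3.88 CPM (at least 295-fold higher). In Hp1α/β/γ Δ/Δ they were Gm5662, Usp17le, Gm6763, Gm8300 and AA792892, with 3.66 ± 0.907 CPM for Gm5662 (at least 77.9-fold higher). Against Hp1α/β Δ/Δ ESCs 26 of the 43 were higher, where 25.4% of all genes tested were, led by Gm6763, Gm8300, BB287469, Gm2016 and Pramef25. Of the 28 tested there, 12 were at 0 in every Hp1α/β Δ/Δ library, and most of the rest also passed the filter only through the mutant libraries. In the other mutants 2 or 3 of the 43 could be tested. None was called by edgeR or DESeq2 in Hp1α Δ/Δ, Hp1β Δ/Δ, Hp1γ Δ/Δ, Hp1α/β Δ/Δ or Hp1α/γ Δ/Δ ESCs, where 1.56%, 2.75%, 2.04%, 2.96% and 6.75% of all genes were higher. At an unadjusted p under 0.05 the numbers were 0, 1, 0, 1 and 1 by edgeR. By adjusted p alone, 1 of the list was higher in Hp1β Δ/Δ (24.7% of all genes), 1 lower in Hp1α/β Δ/Δ (22.1%) and 1 lower in wild-type set B against set A (12.5%).

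**Figure D4:**
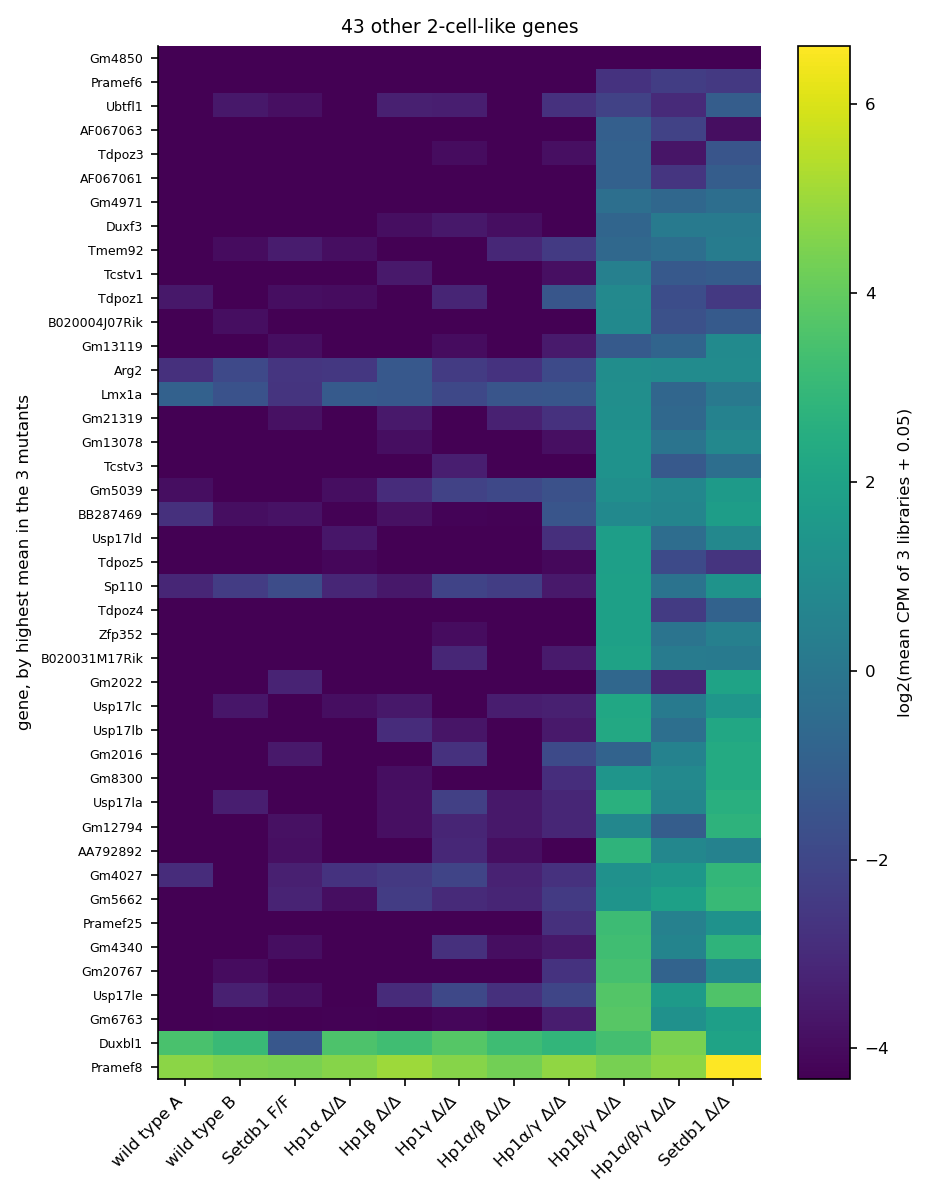
Mean level of the 43 other 2-cell-like genes (rows, ordered by their highest mean in the 3 high mutants) in the 11 conditions (columns), as log2(mean CPM of 3 libraries + 0.05). Most rows are dark except in the last 3 columns, and Pramef8 is also expressed in the controls.

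Over the means of the 11 conditions, the genes most like the family sum were Zscan4-ps2 (Pearson r = 0.993), Usp17le (0.985), Usp17la (0.978), Speer4cos (0.974), Gm48764 (0.971), Gm47808 (0.971), Gm12183 (0.971), Gm47357 (0.970), Gm50331 (0.970) and Gm48754 (0.969), among 14965 genes with at least 1 CPM in the mean of all libraries, on the log2(CPM + 0.5) scale. Spearman's rho for these ran from 0.546 for Gm48754 to 0.907 for Gm12183, and r without Hp1β/γ Δ/Δ and Setdb1 Δ/Δ from 0.900 for Gm48754 to 0.977 for Zscan4-ps2. The conditions share controls and 8 of the 11 sit near 0 in the family, so that r is set by few points. For Duxf3, which is below that level, r was 0.940. Zscan4-ps2 shares reads with the members, so its r is not that of a separately measured gene. Speer4cos had 227 CPM in Setdb1 Δ/Δ and 58.8 CPM in Hp1α/β/γ Δ/Δ, above its 30.5 CPM in Hp1β/γ Δ/Δ.

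Regulators of the 2-cell-like state other than Dux, which is described above, were expressed in all conditions, unlike the family. In Hp1β/γ Δ/Δ, Dppa2 had 67.5 ± 2.24 CPM against 92.7 ± 4.71 in wild-type set B and Dppa4 had 105 ± 2.98 against 197 ± 4.26 (SD, n = 3 each), neither past the fold threshold. Dppa4 was lower in Hp1α/β/γ Δ/Δ, at 96.0 ± 3.65 CPM against 232 ± 3.04 in wild-type set A (log2 fold change -1.30, SE 0.034, edgeR adjusted p = 2.372e-17), and in Hp1α/β Δ/Δ (-1.002, SE 0.039, edgeR adjusted p = 1.57e-12), where the family was at 1 count. In Setdb1 Δ/Δ, Dppa2 had 168 ± 3.03 CPM against 93.9 ± 1.37 and Dppa4 142 ± 5.42 against 134 ± 2.5. Tbx3, a T-box factor linked to Zscan4 expression, differed between the parental cells: it had 359 ± 1.28 CPM in Setdb1 F/F and 5.08 ± 0.228 CPM in wild-type set A, both with the family near 0. It was at 185 CPM in Setdb1 Δ/Δ (-0.97), below the fold threshold. It rose in Hp1α/γ Δ/Δ to 96.2 ± 7.08 CPM (log2 fold change 4.44, SE 0.16, edgeR adjusted p = 1.576e-05, or 4.53 without replicate 2) and in Hp1α/β Δ/Δ to 36.0 ± 1.04 CPM (2.81, SE 0.086, edgeR adjusted p = 4.633e-14), and had 5.14 ± 0.397 CPM in Hp1β/γ Δ/Δ against 4.32 ± 0.563 in its control. Hp1γ Δ/Δ ESCs were also called higher (1.68), while Hp1α/β/γ Δ/Δ cells were higher than wild-type set A (1.06) and lower than Hp1α/β Δ/Δ ESCs (-1.77).

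Of 18 repressors of the state, 0 were called in Hp1β/γ Δ/Δ by edgeR or DESeq2, where the family was at 43.9 CPM and 4.54% of all genes were lower, although 12 had an unadjusted p under 0.05 by either tool. Trim28, the KAP1 corepressor, had 1228 CPM there against 1375, Rif1, a telomere-associated repressor, 454 against 476, and Setdb1 168 against 184. In Hp1α/β/γ Δ/Δ 4 of the 18 were lower by edgeR and 2 by DESeq2, where 17.1% of all genes tested were lower by edgeR, and 1 was higher by either tool. The 4 lower by edgeR were Ehmt1, the H3K9 methyltransferase GLP (log2 fold change -1.62, SE 0.046, edgeR adjusted p = 9.445e-17), the DNA methyltransferase Dnmt1 (-1.17), Smchd1 (-1.03) and Zmym2 (-1.03). Mga, a subunit of the PRC1.6 complex, was higher (1.27), where 25.1% of all genes were. Against Hp1α/β Δ/Δ ESCs 2 of the 18 were higher by either tool, where 25.4% of all genes tested were by edgeR, and 3 were lower. The share of all genes lower in this comparison is not given here, and against wild-type set A it was 17.1%. In Setdb1 Δ/Δ, Ehmt2, a H3K9 methyltransferase gene, was lower where 11.4% of all genes were (-1.54, SE 0.030, edgeR adjusted p = 5.123e-18). There E2f6, which recruits PRC1.6, was higher (1.07), where 18.5% of all genes were. Smchd1 was lower in Hp1α/γ Δ/Δ (-1.25), where 16.3% of all genes were, and at -0.98 without replicate 2 it was below the fold threshold.

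Markers of ESCs and of differentiated cells moved in some of the same comparisons. Of 8 ESC markers, including Pou5f1, Nanog and Sox2, 5 were lower in the Hp1α/β/γ Δ/Δ libraries than in wild-type set A, with a summed level of 1407 to 1455 CPM per library against 3389 to 3429, where 17.1% of all genes tested were lower. In Hp1β/γ Δ/Δ none of the 8 was called by edgeR or DESeq2, with 8 and 7 at an unadjusted p under 0.05 (3423 to 3483 CPM against 3297 to 3385). Their median log2 fold change there was -0.26, against 0.0049 over all genes tested, so the sum and the median differ in direction. In Setdb1 Δ/Δ 1, Dppa5a, was lower, where 11.4% of all genes were (sum of the 8, 4403 to 4451 CPM against 6207 to 6235). All 8 were detected at a mean of at least 1 CPM in each condition. Of 4 endoderm markers, Gata4, Gata6 and Sox17 were higher in Hp1α/β/γ Δ/Δ, with a summed level of 14.2 to 14.6 CPM against 1.29 to 1.48, where 25.1% of all genes were higher. Foxa2 was higher (3.19) in Setdb1 Δ/Δ, where 18.5% of all genes were. Sox17 was lower there by edgeR (-1.01), where 11.4% of all genes were, but not by DESeq2. The 3 trophoblast markers, Cdx2, Eomes and Elf5, summed to 12.8 to 14.0 CPM in Hp1β/γ Δ/Δ against 8.15 to 10.1, to 3.92 to 5.59 against 6.54 to 8.17 in Hp1α/β/γ Δ/Δ, and to 0.953 to 1.63 against 6.72 to 7.58 in Setdb1 Δ/Δ. By count, 1 was higher in the first, where 7.32% of all genes were. In the second 2 were higher and 1 lower, where 25.1% and 17.1% of all genes were. In the third 1 was lower, where 11.4% of all genes were. The 7 feeder fibroblast markers summed to 27.3 to 29.8 CPM in Hp1β/γ Δ/Δ against 40.2 to 49.0, to 8.70 to 9.70 against 23.5 to 23.8 in Hp1α/β/γ Δ/Δ, and to 1.76 to 2.62 against 6.72 to 7.53 in Setdb1 Δ/Δ. Of the 5 tested in Hp1α/β/γ Δ/Δ, 3 were lower, where 17.1% of all genes were. The opposite call was for 1, Col3a1, which was higher (4.39 against 0.731 CPM), where 25.1% of all genes were. In Hp1α/γ Δ/Δ, 4 ESC markers were higher and 5 feeder markers lower, with and without replicate 2, where 6.75% and 16.3% of all genes were. The part of these differences in the levels of the Zscan4 family was not tested.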

How the data were processed

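RNA-seq of 33 libraries was read from 8 tables, each holding a mutant and its control. The authors deposited, for each of 55487 genes, estimated counts (expected counts, of which 12.9% are not whole) and TPM, the latter scaled by the authors for transcript length and library output. The submitters' notes name TopHat2 2.1.1, RSEM, edgeR and GRCm38.p5. Columns with the authors' own fold changes, p-values and GO terms were not used. Control columns repeated between tables were identical.

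Expected counts were rounded to whole numbers for the fits. Each comparison was fitted on its 6 libraries in edgeR 4.0.16 under R 4.3.3 (filterByExpr, minimum count 10; TMM; glmQLFit and glmQLFTest; Benjamini-Hochberg), with the unrounded sum of the 6 members rounded and entered as 1 added feature. A call needed an adjusted p below 0.05 with a log2 fold change beyond 1 in either direction, as in the study's methods. CPM uses unrounded counts over TMM-scaled totals of all 33 libraries. Ratios of pooled counts have exact binomial 95% intervals, which cover counting error only, and a group at 0 was given a floor of 3 counts over its 3 libraries. The fit was tested on simulated data with 200 changed genes.

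Transcripts were aligned with Biopython 1.88. Gene positions and transcripts are from GENCODE M21 (55141 genes matched by identifier), promoters from RefSeq GRCm38.p6. Named genes are the members, the ps copies, Duxf3, Dppa2, Dppa4, Tbx3, Rif1, Trim28, Setdb1, the HP1 genes, the cluster's neighbours, the 5 called 2-cell-like genes and the 3 regulators and 3 telomere genes with the largest change per comparison at 1 CPM or more, and the 10 genes most like the family sum. Other list genes were named after their values were seen. The members and all lists were chosen with earlier results of these data known. The replicates are described as biological, but whether they came from separate clones is not given in the sources used here.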

Additional observations from a re-analysis of the deposited data

How the results depend on the processing

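The family sum kept its direction in the 5 comparisons in which it could be fitted, under each alternative. Its log2 fold change moved by more than the spread of replicates with the other wild-type set as control, to 5.79 for Hp1α/β/γ Δ/Δ, 5.63 for Hp1α/γ Δ/Δ and 11.02 for Hp1β/γ Δ/Δ, since set A holds 1 count and set B 20. With the ps copies added to the sum it was 8.44 for Hp1α/β/γ Δ/Δ against wild-type set A and 7.34 against Hp1α/β Δ/Δ, whose libraries hold ps counts. Leaving out 1 library gave 9.19 to 11.59 and 9.14 to 11.59 for these comparisons (the highest without the single library, set A replicate 3 or Hp1α/β Δ/Δ replicate 3, that holds the control's 1 count), 1.38 to 2.28 for Hp1α/γ Δ/Δ, 6.75 to 7.67 for Hp1β/γ Δ/Δ and 7.98 to 8.46 for Setdb1 Δ/Δ. The Hp1α/γ Δ/Δ value no longer passed both thresholds without wild-type set B replicate 1 (1.71) or replicate 2 (1.38). Since the family was selected on its counts, passing or missing the thresholds is a description and no test of it. The filter of 10 counts in every library removed the family from every comparison. Without a filter the remaining comparisons gave 3.62 (SE 1.42) for Hp1α Δ/Δ, 2.25 (SE 1.79) for Hp1β Δ/Δ, 3.84 (SE 1.35) for Hp1γ Δ/Δ, -0.02 (SE 2.31) for Hp1α/β Δ/Δ and 3.88 (SE 1.26) for wild-type set B against A.

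Same-numbered libraries showed little shared deviation over all genes (r from -0.057 to 0.089). With 3 libraries per condition this cannot exclude that they were paired. A replicate block left the family sum of Hp1α/γ Δ/Δ at 1.77, no longer past the thresholds, and the other fitted sums stayed past them. For a family selected on its counts this too is a description. The block changed no count of 2-cell-like genes by over 1.5 times.

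Counts of 2-cell-like genes higher fell to 1 in Hp1α/β/γ Δ/Δ against either control, 0 in Hp1β/γ Δ/Δ and 1 in Setdb1 Δ/Δ when 10 counts were required in every library, which removes genes at 0 in the control. Without a filter, 1 was higher in Hp1γ Δ/Δ and 2 in Hp1α/γ Δ/Δ. By adjusted p alone, 1 was higher in Hp1β Δ/Δ, 1 lower in Hp1α/β Δ/Δ and 1 lower in wild-type set B against A. At control totals of 1 to 20 counts, depth limits the size of each fold change but not its direction in the 3 high conditions.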

Other observations

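The telomere list covers the process the family is best known for. Of the 12 that could be tested, 0 were called in Hp1β/γ Δ/Δ by edgeR or DESeq2, with 6 at an unadjusted p under 0.05 by either tool. Terf1, a shelterin gene, had 124 ± 3.12 CPM there against 71.96 ± 3.44 (SD, n = 3 each; log2 fold change 0.78). In Setdb1 Δ/Δ 1 was lower, the helicase gene Rtel1 (log2 fold change -1.20, SE 0.037, edgeR adjusted p = 3.961e-15), where 11.4% of all genes were. In Hp1α/β/γ Δ/Δ against wild-type set A the shelterin genes Acd (1.40) and Terf2 (1.23) were higher, where 25.1% of all genes were, and Atrx (-1.11) was lower, where 17.1% were. Against Hp1α/β Δ/Δ ESCs 3 were higher, Terf2 (1.34), Acd (1.14) and Terf2ip (1.07), where 25.4% of all genes were, and 0 were lower by edgeR or DESeq2, with 11 of the 12 at an unadjusted p under 0.05. Tert was lower in Hp1α/γ Δ/Δ (-1.05, SE 0.18, edgeR adjusted p = 0.003261), where 16.3% of all genes were. At -0.86 without replicate 2, which stood apart, it was below the fold threshold.

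The list of meiotic recombination holds 3 genes. All 3 were called higher in Setdb1 Δ/Δ, where 18.5% of all genes were. Smc1b, a meiotic cohesin gene, had 260 CPM there against 3.97 in Setdb1 F/F (log2 fold change 6.03, SE 0.068, edgeR adjusted p = 5.245e-21), Dmc1, a recombinase gene, 92.5 against 26.2 (1.81), and Spo11, which makes the double-strand breaks of meiosis, 4.80 against 0 counts, at least 88.4-fold higher. In Hp1α/β/γ Δ/Δ Smc1b was higher, at 33.5 CPM against 6.46 in wild-type set A (2.35, SE 0.097, edgeR adjusted p = 3.037e-14), and Dmc1 lower (-1.71), where 25.1% and 17.1% of all genes were. In Hp1β/γ Δ/Δ, where Smc1b had 5.34 CPM, 2 could be tested and 0 were called by edgeR or DESeq2, although both had an unadjusted p under 0.05. In Hp1α/γ Δ/Δ Smc1b was higher, at 10.97 CPM against 3.64 (1.56, or 1.65 without replicate 2), where 6.75% of all genes were.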
